A study of Caenorhabditis elegans with 4 samples.

Results

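Microtubule genes of the nematode Caenorhabditis elegans were followed in adult males: the tubulins, the kinesin and dynein motors, and a few regulators of microtubules and motors. Members were the probes whose symbol in the platform annotation began with klp-, tba-, tbb-, tbg-, dhc-, dli-, dlc-, dyci-, dylt-, dnc-, zyg- or nud-, or was unc-116, bmk-1, mei-1, mei-2, lis-1 or ptl-1. The genes tba-6, tbb-4, klp-6, klp-11 and klp-20, which are tied to cilia, were left out by the same rule. It found 51 of 20000 probes. After probes of the same gene were averaged, they made 49 of 19513 features, namely 45 named genes and 4 probes that the annotation gives to 2 kinesin genes each. Of the 51 probes, 50 had values on 4 arrays and 1, a probe of tba-2, had none, so that all 49 members were measured on every array.

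The data are 4 DNA microarrays of 2 colours. Each set messenger RNA from a different preparation of adult males mutant for him-5, a defect that raises the share of male offspring, against RNA of wild-type worms of mixed stages, and preparations 1 to 4 are the only group. The reference did not carry the him-5 mutation, so sex, genotype and stage differ together between males and reference. Whether separate cultures gave these preparations is not in the labels. A p-value here therefore covers the spread between preparations alone, and that spread may be technical. Dates at the end of the array titles put preparations 1 and 2 in an earlier period than the others. These dates are taken below as the period of hybridization, but what they mark is not stated in the labels.

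Microtubules are hollow polymers of paired alpha and beta tubulin, and gamma tubulin starts their growth at centrosomes. Most kinesins walk towards the growing end of a microtubule, while cytoplasmic dynein, helped by dynactin, LIS1 and NUD proteins, walks the other way. In the worm these proteins build the meiotic and mitotic spindles of the germline and embryo, and they carry cargo along the axons of neurons.

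Values are log2 ratios of males over reference, so that 1 stands for a 2-fold higher level in males. That direction is likely from the title, the descriptions and the channel order, but no dye is named and the labels do not settle it. Of 20 sperm genes chosen as markers, 19 were called higher and none lower, with a list median of 4.46 and array medians from 4.10 to 4.61. Of 19 measured genes of oocytes and early embryos, 18 were called lower and none higher, with a median of -1.42 and array medians from -1.91 to -1.18. Of 12 genes of male ciliated neurons, 9 were called higher and 1 lower, and of 10 measured touch receptor neuron genes, 5 were called lower and none higher. A gene is called where limma's moderated test against 0 gave a Benjamini-Hochberg adjusted p under 0.05 over all 19214 features tested. Worms were measured whole, and fewer cells of a type cannot be told apart from less RNA per cell.

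Among the 49 members, 8 were called higher in males and 20 lower. Of all features tested, 22.1% were called higher and 23.6% lower, against 16.3% and 40.8% of the members. The called members of at least 2-fold were 3 higher (tba-4, dlc-6 and klp-17) and 10 lower, where 13.2% and 12.1% of all features passed the same limits. The median of the members was -0.18, with array medians of -0.26, -0.58, -0.27 and -0.10 on preparations 1 to 4, while the median of all features was 0.05. Below 0 on every array were 22 members, against 29.5% of all features, and above 0 on every array were 10, against 31.7%. The calls were also split by role, in a grouping made after the values were seen. Alpha and beta tubulins, 10 of the 49 members, gave 5 of the 8 higher calls. Motors, motor cofactors, gamma tubulin and regulators, 39 of the 49 members, gave 18 of the 20 lower calls.

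The higher calls depended on which scaling of the arrays was used. Centring on the array median, scaling to equal spread and quantile normalization each left 8 members called higher, against 21.1% to 24.1% of all features. In a further scaling each array was centred on its ribosomal protein genes, below called ribosomal centring. It took 1.10 off preparation 2 and 0.04 to 0.33 off the others, and the median over all features became -0.35. Then 1 member was called higher and 19 lower, against 8.45% and 23.6% of all features. The higher member under ribosomal centring was klp-17. Without preparation 3 there were 4 members called higher and 10 called lower, and the calls over all features were fewer as well, at 14.2% higher and 15% lower. With array weights 9 members were called higher and 22 lower, against 31.6% and 32% of all features.

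**Figure D1:**
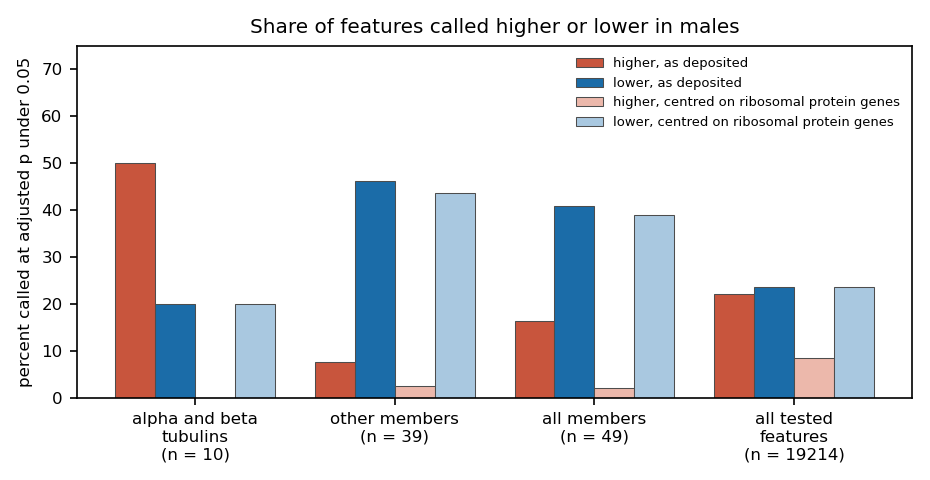
Percent of features called higher (red) or lower (blue) in males at an adjusted p under 0.05, for values as deposited (dark bars) and after ribosomal centring (pale bars). Members other than alpha and beta tubulins were called lower in 46.2% of 39, and the 5 alpha and beta tubulins called higher as deposited were not called after that centring.

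Alpha tubulins went both ways, with 4 of 7 higher (57.1%) and 1 lower (14.3%), against 22.1% and 23.6% of all features. The alpha tubulin median of 0.63 was 0.23 after ribosomal centring, where none was called higher. The broadly expressed alpha tubulin tba-4 stood at 0.55, 1.19, 0.64 and 1.72 on preparations 1 to 4. It was above 0 on every array and highest on preparation 4. Its mean was 1.02 ± 0.54 (SD, n = 4, limma adjusted p = 0.0103), a 2.03-fold higher level in males, and after ribosomal centring it was 0.62 (adjusted p = 0.149).

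The alpha tubulin tba-7 had values of 1.00, 0.70, 0.61 and 1.03, all within a narrow band above 0. They gave a mean of 0.83 ± 0.21 (SD, n = 4, limma adjusted p = 0.00677). In tba-5, which encodes an alpha tubulin of sensory cilia, the values were 0.49, 0.51, 1.04 and 0.68. Preparation 3 was the highest of these, and without it the mean of 0.68 ± 0.26 (SD, n = 4, limma adjusted p = 0.0174) became 0.56 (adjusted p = 0.119). For tba-2, one of the main alpha tubulins of the germline and early embryo, the values were 0.09, 0.76, 0.76 and 0.92. Preparation 1 was near 0 and the others lay close together, with a mean of 0.63 ± 0.37 (SD, n = 4, limma adjusted p = 0.0336) that lost its call without preparation 2, 3 or 4.

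Of the other alpha tubulins, tba-8 was opposite to these. It stood at -1.53, -0.79, -2.01 and -1.28, below 0 on every array, with a mean of -1.40 ± 0.51 (SD, n = 4, limma adjusted p = 0.0024), a 2.64-fold lower level in males. The call of tba-8 held under every scaling tried and whichever preparation was left out. On single arrays tba-4 exceeded tba-8 by 1.98 to 3.00, a pair set side by side after the values were seen. The alpha tubulin tba-1, which acts beside tba-2 in the embryo, stood at -0.21, 0.39, 0.08 and 0.41. Its mean of 0.17 was not called, with a 95% interval of -0.26 to 0.59. The ciliary alpha tubulin tba-9 was at -0.20, -0.10, -0.10 and 0.13, on both sides of 0 and close to it. Its mean of -0.07 was not called, with an interval of -0.45 to 0.31.

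Of the 3 beta tubulins, 1 was higher, 1 lower and 1 not called, with a median of 0.28 that was -0.12 after ribosomal centring. Each call is 33.3% of them, against 22.1% higher and 23.6% lower over all features. The broadly expressed tbb-1 had values of 0.39, 0.48, 0.44 and 0.75, with preparation 4 above the rest. Its mean of 0.51 ± 0.16 (SD, n = 4, limma adjusted p = 0.0372) lost the call without preparation 1, 3 or 4, with the period of hybridization as a covariate, and after ribosomal centring (0.11, adjusted p = 0.8). Its close partner in the embryo, tbb-2, was at -0.08, 0.12, 0.24 and 0.83, again with preparation 4 above the rest. The mean of 0.28 was not called, with an interval of -0.19 to 0.74. The divergent beta tubulin tbb-6 was at -0.17, -0.89, -0.82 and -0.78, where preparation 1 lay apart from 3 arrays close together. The mean was -0.67 ± 0.33 (SD, n = 4, limma adjusted p = 0.0246), and the call was lost without preparation 2, 3 or 4.

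Taking alpha and beta tubulins together, a grouping made after the values were seen, 5 of 10 were called higher and 2 lower, with a median of 0.40 that turned to -0.005 after ribosomal centring. Their array medians were 0.003, 0.43, 0.34 and 0.72. As deposited the calls are 50% and 20%, against 22.1% and 23.6% of all features. The tubulin genes are similar in sequence, and whether a probe also reads another tubulin gene was not tested.

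Gamma tubulin, tbg-1, which nucleates microtubules at the centrosome, was lower. It had values of -0.75, -1.56, -1.08 and -1.07, below 0 throughout, and preparation 2 was the lowest. The mean was -1.11 ± 0.34 (SD, n = 4, limma adjusted p = 0.00305), a 2.16-fold lower level in males. On each array tbg-1 stood below tba-2, by 0.83 to 2.32, and below tbb-2, by 0.67 to 1.90, pairs set side by side after the values were seen.

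**Figure D2:**
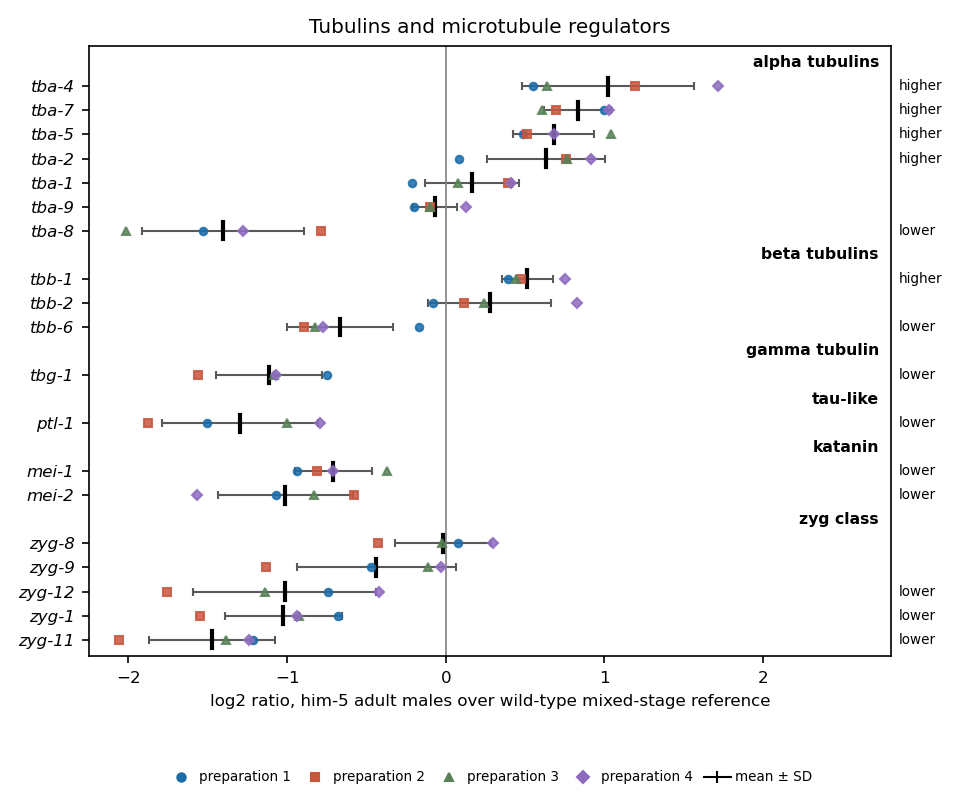
Log2 ratio of males over reference for tubulins and microtubule regulators on each array (symbols, preparations 1 to 4), with the mean (bar) and SD (whiskers, n = 4) and the call at the right edge. As deposited, 7 of 10 alpha and beta tubulins have means right of 0 (5 of 10 after ribosomal centring), and tba-8, tbb-6, tbg-1, ptl-1, both katanin genes and 4 of 5 zyg genes lie left of it on every array.

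The regulators outside the motor complexes were lower wherever they were called. The tau-like gene ptl-1, whose product binds microtubules of neurons, stood at -1.51, -1.88, -1.003 and -0.79. All 4 values were below 0, and the mean of -1.29 ± 0.49 (SD, n = 4, limma adjusted p = 0.00311) is a 2.45-fold lower level in males. Katanin severs microtubules in the meiotic spindle of the oocyte, and its genes mei-1 and mei-2 were both called lower. The values of mei-2, the regulatory subunit, were -1.07, -0.58, -0.83 and -1.57, with preparation 4 the lowest. Their mean was -1.01 ± 0.42 (SD, n = 4, limma adjusted p = 0.00671). The catalytic subunit mei-1 averaged -0.71 ± 0.24 (SD, n = 4, limma adjusted p = 0.0142) with arrays from -0.94 to -0.37, and was not called in the absence of preparation 1 (-0.63, adjusted p = 0.0668).

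Genes of the zyg class, named for defects of the zygote, were all below 0 in their means as deposited (4 of 5 with quantile normalization). Of these genes 3 of 5 were called lower (60%, against 23.6% of all features), with a median of -1.01. The strongest was zyg-11, the substrate recognition subunit of a ubiquitin ligase, which is no cytoskeletal protein. It stood at -1.21, -2.06, -1.38 and -1.24, with preparation 2 the lowest, and its mean of -1.47 ± 0.40 (SD, n = 4, limma adjusted p = 0.00116) was a 2.78-fold lower level in males, the lowest mean of the 49 members. The centriole duplication kinase zyg-1 had values of -0.68, -1.55, -0.93 and -0.94, and a mean of -1.02 ± 0.37 (SD, n = 4, limma adjusted p = 0.00511). Here too preparation 2 was lowest and no value was above 0.

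The values of zyg-12, whose Hook protein ties centrosomes to the nucleus, were -0.74, -1.76, -1.14 and -0.42. The mean was -1.01 ± 0.58 (SD, n = 4, limma adjusted p = 0.0123), and without preparation 3 the call was lost (-0.97, adjusted p = 0.0531). The other zyg genes did not pass the test. The microtubule polymerase gene zyg-9, with an oocyte and embryo role, was at -0.44 with an interval of -0.96 to 0.09, and its 2 probes agreed in sign on every array. The doublecortin-related kinase zyg-8, which protects long spindle microtubules in the embryo, was at -0.02 with an interval of -0.45 to 0.41. On single arrays zyg-8 exceeded zyg-11 by 1.29 to 1.63, a pair set side by side after the values were seen.

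Kinesins held the member with the highest mean, klp-17, and 1 of the 10 called lower by at least 2-fold, klp-12. Of 13 kinesin features, 2 were called higher and 5 lower, with a median of -0.41. These are 15.4% and 38.5%, against 22.1% and 23.6% of all features. The gene klp-17, which encodes a kinesin with its motor at the C-terminal end, stood at 2.59, 1.19, 2.34 and 3.87. Every array was far above 0, preparation 2 was lowest and preparation 4 highest. The mean of 2.50 ± 1.10 (SD, n = 4, limma adjusted p = 0.00195) is a 5.66-fold higher level in males, and was higher than the means of 96% of all features tested. It ran from 2.04 to 2.94 when single preparations were left out, and kept its call each time.

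Sperm genes were higher too, and some of them spread over the arrays as klp-17 did. Of the marker genes, chosen here after their values were seen, spe-41 stood at 2.85, 1.32, 2.29 and 4.50, and fer-1 at 2.31, 0.78, 1.53 and 3.69. In both genes preparation 2 was lowest and preparation 4 highest, as in klp-17. The other sperm markers with values on every array did not show that order. Members such as dhc-1, klp-7 and klp-19 did show it, so it is not particular to sperm genes. The median of the whole sperm list was lowest on preparation 4, at 4.10, and so did not follow that order. Of the sperm genes with values on every array, 10 were lowest on preparation 4 and 8 on preparation 2. The part of sperm content in the klp-17 ratio was not tested.

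The other higher kinesin was klp-7, a kinesin that takes microtubules apart at their ends and does not walk along them. It had values of 0.71, 0.51, 1.08 and 1.33, all above 0 and highest on preparation 4. The mean was 0.91 ± 0.37 (SD, n = 4, limma adjusted p = 0.00825), a 1.88-fold higher level in males. After ribosomal centring it was 0.51 (adjusted p = 0.288).

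Lower kinesins were led by klp-12, which regulates axon length in neurons. It stood at -0.52, -2.15, -2.03 and -1.16, with preparations 2 and 3 far below preparation 1. The mean was -1.46 ± 0.77 (SD, n = 4, limma adjusted p = 0.00596), a 2.76-fold lower level in males. The array differences of klp-17 minus klp-12 were 3.11, 3.34, 4.37 and 5.03, for a pair set side by side after the values were seen.

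The kinesin klp-4, which moves glutamate receptors in neurons, was at -0.92, -1.36, -1.28 and -0.17, with preparation 4 nearest 0. Its mean of -0.93 ± 0.54 (SD, n = 4, limma adjusted p = 0.0152) lost the call without preparation 2 (-0.79, adjusted p = 0.0535) or 3 (-0.81, adjusted p = 0.0754). The C-terminal motor kinesin klp-3 had values of -0.26, -1.42, -0.72 and -0.65 and a mean of -0.76 ± 0.48 (SD, n = 4, limma adjusted p = 0.0256). Without preparation 3 it was -0.78 (adjusted p = 0.085). Thus klp-3 and klp-17, both of the C-terminal motor class, stood on opposite sides of 0 on every array.

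A pair of probes is annotated to klp-15 and klp-16 together, near-identical kinesins of the oocyte spindle, and cannot be given to either. Probe a was at -0.72, -0.39, -0.33 and -0.50, and probe b at -0.82, -0.64, -0.27 and -0.63. Every value lay below 0, with preparation 1 the lowest and preparation 3 the nearest to 0 on both probes. The means were -0.48 ± 0.17 (SD, n = 4, limma adjusted p = 0.0463) for probe a and -0.59 ± 0.23 (SD, n = 4, limma adjusted p = 0.0273) for probe b, and both calls were lost without preparation 1, 3 or 4, that of probe a also with the period as a covariate (adjusted p = 0.0712).

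A further pair is annotated to klp-10 and klp-18, of which klp-18 acts in oocyte spindles. Probe a was at -0.69, -0.96, -0.10 and 0.09, and probe b at -0.60, -0.32, 0.29 and -0.09. Neither was called, with means of -0.41 and -0.18 and intervals of -0.93 to 0.10 and -0.64 to 0.28.

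The remaining kinesins did not pass the test. The conventional kinesin heavy chain unc-116, the main transport motor of axons, was at -0.48, -1.62, -0.50 and -0.09. It was below 0 on every array, and preparation 2 was far below the others. The mean was -0.67 ± 0.66 (SD, n = 4, limma adjusted p = 0.071), and unc-116 was called lower without preparation 4 (-0.87, adjusted p = 0.0457), as well as with quantile normalization (-0.65, adjusted p = 0.042), arrays scaled to equal spread (-0.64, adjusted p = 0.0493), array weights (-0.51, adjusted p = 0.0149) or the hybridization period as a random block (-0.67, adjusted p = 0.0435). The spindle kinesin bmk-1 was at 0.56, -0.41, -0.42 and 0.09, with a mean of -0.04 and an interval of -0.55 to 0.46. The chromosome-bound klp-19 was at -0.03, -1.10, 0.12 and 0.43, where preparation 2 was again far below, with a mean of -0.14 and an interval of -0.76 to 0.47. The kinesin klp-13 was at -0.64, 1.07, -0.19 and 0.69, high on preparation 2, with a mean of 0.23 and an interval of -0.46 to 0.92.

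**Figure D3:**
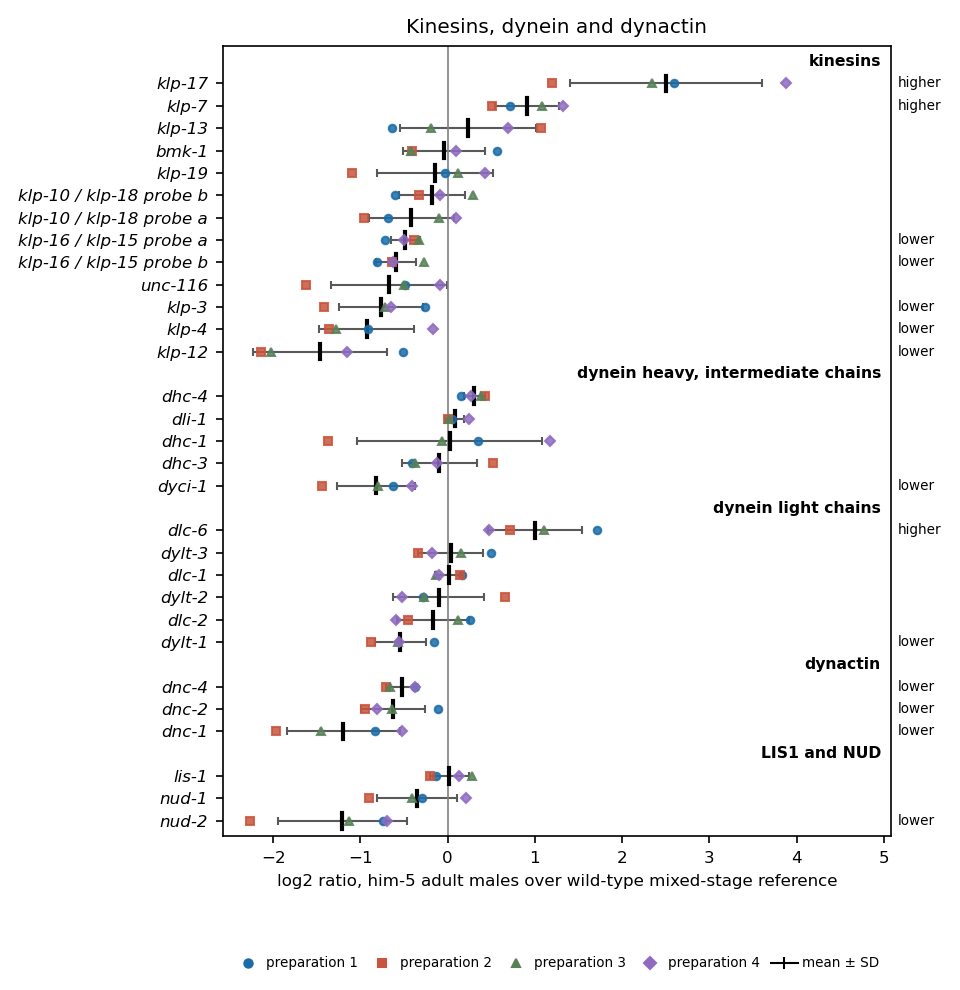
Log2 ratio of males over reference for kinesins, dynein, dynactin and cofactors on each array (symbols, preparations 1 to 4), with the mean (bar) and SD (whiskers, n = 4) and the call at the right edge. The values of klp-17 lie between 1.19 and 3.87, clear of the other motor genes on average, and preparation 2 is the lowest array for most of the lower genes.

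Of the 5 genes of dynein heavy, intermediate and light intermediate chains, 1 was called lower and none higher. These are 20% and 0%, against 23.6% and 22.1% of all features. The heavy chain dhc-1, the motor subunit of cytoplasmic dynein, was at 0.35, -1.37, -0.06 and 1.17. These arrays spread more widely than those of any member but klp-17, with preparation 2 lowest and preparation 4 highest. The mean of 0.02 ± 1.06 (SD, n = 4, limma adjusted p = 0.967) has an interval of -0.85 to 0.89. That interval is wide, and dhc-1 may be higher or lower in males within it. When single preparations were left out, the mean ran from -0.36 to 0.49. Members with an SD above 1 were dhc-1 and klp-17, 2 of 49, against 4.41% of all features.

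The intermediate chain dyci-1, which links the motor to dynactin, was at -0.63, -1.45, -0.80 and -0.41, below 0 on each array. Its mean of -0.82 ± 0.45 (SD, n = 4, limma adjusted p = 0.0169) lost the call without preparation 3 (-0.83, adjusted p = 0.0661). The light intermediate chain dli-1 was close to 0 on all arrays, with values from 0.004 to 0.25 and an interval of -0.30 to 0.45. The dynein heavy chain genes dhc-3 and dhc-4 were not called, at -0.10 and 0.31, with intervals of -0.58 to 0.39 and -0.07 to 0.68. With array weights dhc-4 was called higher (0.34, adjusted p = 0.0284).

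Among 6 light chain genes, 1 was higher, 1 lower and 4 not called. Each call is 16.7% of them, against 22.1% higher and 23.6% lower over all features. The light chain gene dlc-6 stood at 1.72, 0.72, 1.10 and 0.47, above 0 throughout, and highest on preparation 1. Its mean was 1.00 ± 0.54 (SD, n = 4, limma adjusted p = 0.0113), a 2.00-fold higher level in males, and the call was lost without preparation 3 (0.97, adjusted p = 0.0503) and after ribosomal centring (0.60, adjusted p = 0.242). The Tctex-type light chain dylt-1 was at -0.16, -0.88, -0.57 and -0.55. Preparation 1 was nearest 0, and the mean of -0.54 ± 0.30 (SD, n = 4, limma adjusted p = 0.0447) lost its call whichever preparation was left out, with the period of hybridization as a covariate (adjusted p = 0.0643) and after ribosomal centring (-0.94, adjusted p = 0.0612). The widely expressed dlc-1 was at 0.16, 0.14, -0.14 and -0.10, close to 0 throughout, with a mean of 0.02 and an interval of -0.37 to 0.40.

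The other light chain genes had values on both sides of 0 and were not called. The Tctex-type dylt-3 was at 0.50, -0.34, 0.16 and -0.18, with a mean of 0.03 and an interval of -0.43 to 0.49. The Tctex-type dylt-2 was at -0.28, 0.65, -0.27 and -0.52, high on preparation 2 alone, with a mean of -0.10 and an interval of -0.64 to 0.43. The values of dlc-2 were 0.26, -0.45, 0.12 and -0.59, with a mean of -0.17 and an interval of -0.65 to 0.31.

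Dynactin, which tethers dynein to its cargo, was lower in all 3 measured subunits and under each of the 4 other scalings. Over all features, 23.6% were called lower as deposited. The values of dnc-1, the large Glued subunit that touches the microtubule, were -0.83, -1.97, -1.45 and -0.52. The mean was -1.20 ± 0.65 (SD, n = 4, limma adjusted p = 0.00842), a 2.29-fold lower level in males, and the call held whichever preparation was left out. The dynamitin gene dnc-2 was at -0.11, -0.95, -0.64 and -0.81, with preparation 1 near 0. Its mean of -0.63 ± 0.37 (SD, n = 4, limma adjusted p = 0.0338) lost the call without preparation 2, 3 or 4. The smaller subunit gene dnc-4 averaged -0.53 ± 0.18 (SD, n = 4, limma adjusted p = 0.0354), with arrays from -0.70 to -0.37, and lost its call whichever preparation was left out and with the period as a covariate (adjusted p = 0.056).

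Cofactors of dynein differed. The NudE-related gene nud-2 was at -0.74, -2.27, -1.13 and -0.69, with preparation 2 far below the others. The mean was -1.21 ± 0.74 (SD, n = 4, limma adjusted p = 0.0115), a 2.31-fold lower level in males. Its partner lis-1, the worm gene of LIS1, was not called at 0.02, with an interval of -0.38 to 0.42, and stood above nud-2 on every array by 0.61 to 2.07, a pair also picked after its values were seen. The NudC-related gene nud-1 was not called at -0.35, with an interval of -0.85 to 0.15.

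Preparation 2 was the lowest array for 27 of the 49 members, or 55.1%, against 39.4% of all features with 4 values. Among the 39 members other than alpha and beta tubulins it was lowest for 26, and among the 10 alpha and beta tubulins for 1, where preparation 1 was lowest for 7. All 3 dynactin genes and all 5 zyg genes had their lowest value there. The ribosomal protein genes moved the other way, with medians of 0.13, 1.10, 0.04 and 0.33 on preparations 1 to 4. Whether the 2 shifts have to do with each other was not tested. Without preparation 2 the members' counts were 7 higher and 15 lower, against 19.5% and 21.8% of all features. By the dates in the array titles, preparations 1 and 2 were the earlier pair. They differed from the later pair in no member at an adjusted p under 0.05 by limma, the smallest being 0.98. With 2 arrays on each side this test could miss large differences and does not show that the periods were alike. Later minus earlier was 1.2 for klp-17 and 1.07 for dhc-1.

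**Figure D4:**
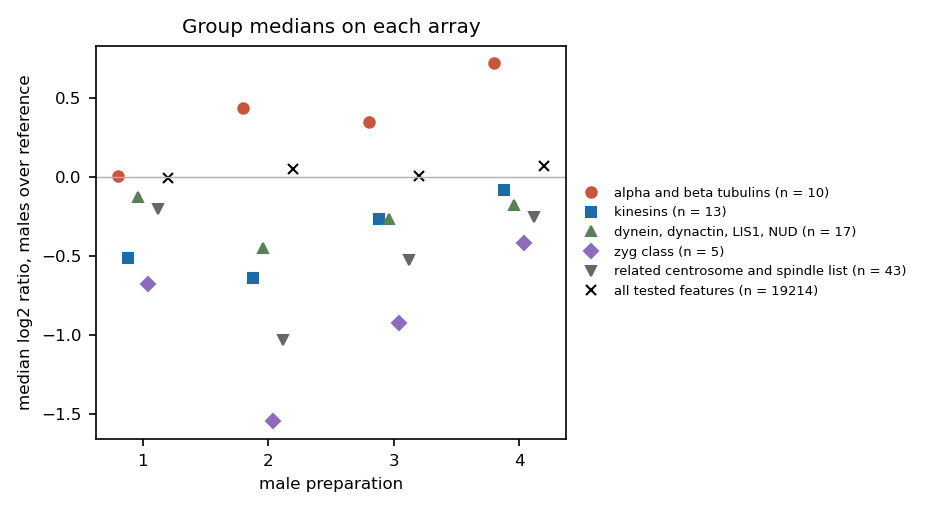
Median log2 ratio of males over reference by group on each array, with no line between arrays because preparations have no order. The zyg genes and the related centrosome and spindle genes reach -1.55 and -1.03 on preparation 2, while alpha and beta tubulins lie at 0.003 on preparation 1 and at 0.34 to 0.72 on the others.

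Members were spread over the genome, with 5 on the X chromosome (tba-8, tba-9, klp-4, klp-13 and dylt-2), 39 on autosomes and 5 given no single chromosome here. Of the X-linked members, 2 were lower and none higher. Over all tested genes of the X chromosome, 30.5% were lower and 13.9% higher, against 25.6% and 23% of autosomal genes. The 8 higher members were all autosomal. With 5 members on the X chromosome, where 13.9% of genes were higher, that is no result about the members.

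Related genes outside the set were counted for comparison. Of 27 measured genes of other tubulins, motors, motor adaptors and tubulin chaperones, 4 were higher and 11 lower, with a median of -0.20. These are 14.8% and 40.7%, against 22.1% and 23.6% of all features. The ciliary alpha tubulin tba-6, active in male sensory neurons, stood at 4.89, 3.09, 4.09 and 4.03, a mean of 4.03 ± 0.74 (SD, n = 4, limma adjusted p = 7.88e-05). That is above tba-4, the highest tubulin in the set, on every array. The scaffold gene jip-1, a kinesin partner, averaged 1.60 ± 1.51 on 3 arrays (SD, limma adjusted p = 0.0468), with preparation 3 at 3.30, and stood at 0.74 without it (adjusted p = 0.144). The lower genes with the largest ratios were the kinesin-related vab-8 at -1.57 ± 0.49, and the kinesin cargo adaptors unc-14 at -1.21 ± 0.51 and unc-76 at -1.21 ± 0.46 (SD, n = 4).

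Of 43 measured genes of centrosomes, spindles and microtubule modification, 2 were higher and 17 lower, with a median of -0.47. These are 4.65% and 39.5%, against 22.1% and 23.6% of all features. The strongest was mel-26, which marks katanin MEI-1 for destruction after meiosis, at -1.47, -2.73, -1.55 and -2.25. Its mean was -1.997 ± 0.598 (SD, n = 4, limma adjusted p = 0.000764), so that mei-1, mei-2 and mel-26 were all lower. The tubulin tyrosine ligase-like genes, whose family adds glutamate chains to tubulin, ttll-5 and ttll-4 stood at -1.58 ± 0.27 and -1.22 ± 0.12 (SD, n = 4). The kinetochore gene ndc-80 was at -1.34 ± 0.43 and the non-centrosomal microtubule organiser noca-1 at -1.28 ± 0.63 (SD, n = 4). Oocyte and early embryo markers were lower on the same arrays, and their part in these values and in those of the members was not tested.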

How the data were processed

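The authors deposited log2 ratios per probe, already scaled per array. The scaling method, image analysis, background correction and spot filters are not given in the sources used here. Base 2 was read from the values: on each array 100% of ratios under 3 came out as multiples of 0.001. The deposited medians lay between -0.01 and 0.07, and values were used as deposited. Spot intensities were not used here, so no filter on faint spots was possible. Depth does not apply to arrays, and their number, 4, limits precision.

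Symbols came from the platform annotation, updated by gene identifier to assembly WBcel235. It gave 15655 probes 1 symbol, 198 several and 4147 none. Probes of a gene were averaged, and probes with several symbols stayed apart. Features on at least 3 arrays (19214) entered a fit in limma 3.58.1 under R 4.3.3 (intercept, eBayes, two-sided, Benjamini-Hochberg over all features). No array set the reference against itself, so its own spread is left out of the test, and no dye swap is recorded, so dye bias of a gene stays in its ratio. Intervals are 95% and unadjusted. The steps were tested on simulated data.

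Members and lists were chosen with earlier results of these data known. Every member may be named. Values of every array are given for called members of at least 2-fold and for role groups with calls of both signs, and up to 5 called genes with the largest ratios from each related list. Alternatives were other scalings, other limits for missing values, single probes, array weights, robust eBayes and an adjusted p under 0.01. Further ones left out each preparation, or took the hybridization period, as read from the array titles, as covariate or random block. Figures used matplotlib 3.10.9 in Python 3.11.15.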

Additional observations from a re-analysis of the deposited data

Results flagged for a closer look

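In 2 of 69 groups of values examined, an array lay apart from the other 3 by more than Dixon's 95% limit for 4 values, which chance alone passes in about 1 of 20 groups. For tbb-6, the divergent beta tubulin gene, preparation 1 was apart at -0.17. For unc-76, a related kinesin adaptor gene outside the set, preparation 2 was apart at -1.89.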

How the results depend on the processing

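Of 28 called members, 10 kept their call under all 15 alternatives other than the stricter threshold: klp-17, tba-8, tbg-1, ptl-1, mei-2, zyg-1, zyg-11, klp-12, dnc-1 and nud-2. Members had values on every array and mostly 1 probe each, so the limits for missing values and single probes could hardly change a call. No called member changed sign. After ribosomal centring, 1 member was called higher, the members' median was -0.58 (all features: -0.35), 1 related gene and 1624 of all features were called higher. At an adjusted p under 0.01, 3 members were higher and 8 lower, 1 related gene was higher and 17 lower, and 2393 of all features were higher and 2683 lower. Array weights, which weigh preparation 3 at 4.73 and preparation 2 at 0.31, gave 16 of 70 related genes higher and 34 lower, while calls over all features also rose in number, to 31.6% higher and 32% lower. Leaving out single preparations gave 4 to 7 members higher and 10 to 15 lower, 1 to 7 related genes higher and 20 to 27 lower, and 2745 to 3754 of all features higher and 2902 to 4196 lower, the lowest counts being those without preparation 3. No paired analysis was possible because there is a single group. The smallest called change among members was 1.4-fold (probe a of klp-15 and klp-16) and the largest uncalled one 1.59-fold (unc-116), so calls of this size rest on the spread of 4 arrays. Signal over background was not used here.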

Other observations

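Cofactors that fold and pair tubulin were singled out after their values were seen. Of 10 alpha and beta tubulins, 5 were called higher as deposited, against 22.1% of all features, and none after ribosomal centring. Of the 4 genes of tubulin folding given here, 3 were called lower, against 23.6% of all features. The means of tbcb-1 and tbcd-1 were -1.07 ± 0.34 and -0.68 ± 0.30 (SD, n = 4, limma adjusted p of 0.0037 and 0.0206). The values of tbce-1 were -0.680, -1.502, -0.808 and -1.009 on preparations 1 to 4, a 2-fold lower level in males on average (SD 0.36, n = 4, limma adjusted p = 0.00541). Another gene of tubulin folding, evl-20, was at -0.48 ± 0.23 (SD, n = 4, limma adjusted p = 0.0538) and was not called.

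Motors of ciliary transport, also picked after their values were seen, were unequal. Of heterotrimeric kinesin, only klp-11 and kap-1 were among the related genes with values. The first was at -1.11 ± 0.29 and the second at -0.85 ± 0.16 (SD, n = 4), both called lower. The partner kinesin osm-3 was at 0.29 ± 0.29, the ciliary dynein heavy chain che-3 at -0.20 ± 0.23 and its light intermediate chain xbx-1 at 0.02 ± 0.07 (SD, n = 4), and none of these was called.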
